A study of Drosophila melanogaster with 34 samples.

Results

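The mitochondrial ribosomal protein genes are the 72 of 17641 listed gene symbols that start with mRpL or mRpS, 47 for the large and 25 for the small subunit of the ribosome inside mitochondria. Of these, 71 passed the filter on low values and were tested, and the exception, mRpL53, was listed at 0 in every library. All exon bases of mRpL53 in the annotation (100%) also lie in exons of CG33155, so reads from the 2 genes cannot be told apart by position, and no level is given for it.

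Mitochondria keep a small genome that encodes a handful of respiratory chain proteins, and a dedicated ribosome makes them. Its RNAs come from mitochondrial DNA, whereas its proteins are encoded in the nucleus, made in the cytosol and imported. Many of these proteins belong to families shared with bacterial ribosomes, and the rest are additions found in mitochondria. In flies, several mutants of this machinery grow slowly, and respiratory chain subunits from both genomes must be supplied together for the complexes to assemble.

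The data were bulk RNA-seq of wing imaginal discs from larvae raised at 25 °C, in 34 libraries of 9 groups. Tumors came from larvae of the strain scrib1 FRT82B/TM6B with the genotype scrib-/-FRT82B, which were aged 4, 5, 6, 8, 10, 12 or 14 days from egg laying (AEL), and control discs came from FRT82B larvae (strain BL2035) aged 4 or 5 days. Both carry the FRT82B site, and there are no control discs past 5 days. There were 3 libraries of tumors at 6 days and of control discs at 4 days, and 4 of each other group. The study calls them biological replicates, but no label says whether they came from separate pools of larvae. The p-values therefore measure the spread between these libraries. The study asked how gene expression changes while tumors that have lost the polarity gene scrib grow.

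Each library held 18437402 to 26619424 reads on genes, and 3 reads corresponded to 0.116 to 0.166 CPM (the read count relative to library size, scaled by the authors), well under every tested member. RNA of scrib itself was not lost: its level was higher in tumors than in control discs by 0.34 on the log2 scale at 4 days and by 0.59 at 5 days (adjusted p = 2.9e-05 and 2.6e-10, limma), so it gave no check of the labels. All 10 wing disc markers were detected, and their summed level was 895 to 1690 CPM in tumors and 1641 to 2933 CPM in control discs. Markers of other tissues varied as well. The sum of 10 gut markers was 333 to 1973 CPM in tumors at 4 days, 558 to 1109 CPM at 5 days, 295 to 1034 CPM at 6 days, 71.1 to 101.2 CPM at 8 days, 11.1 to 588 CPM at 10 days, 6.43 to 11.3 CPM at 12 days and 4.22 to 12.7 CPM at 14 days. Control discs held 0.906 to 264 CPM at 5 days and 38.0 to 2496 CPM at 4 days. None of the 10 gut markers was at 0 throughout, and all 10 had a negative slope with tumor age past the threshold. In such bulk samples, fewer cells of a type and less RNA per cell cannot be told apart.

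The members were moderately expressed. Over all 34 libraries their mean levels lay between 8.57 and 110 CPM, with a median of 27.8 CPM over the 71 tested. By CPM, mRpS30 (109.9), mRpL28 (73.0), mRpS22 (67.5), mRpL1 (65.8) and mRpL2 (65.7) were highest, and mRpS24 (8.57), mRpL55 (9.37), mRpS18C (10.3), mRpL34 (10.4) and mRpL18 (10.7) lowest. These are levels not corrected for length. Per kilobase of exon, the mean level was 14.3 to 84.2 CPM with a median of 34.7, and mRpL12 was highest. mRpL12 is the stalk protein that, in bacteria, is present in several copies per ribosome and recruits translation factors. Per kilobase, mRpS24 remained lowest, at 14.3 CPM, but 55.3% of its exon bases are shared with exons of TBC1d7, and 7 tested members in all share more than 20% of theirs with another gene. These were mRpS24, mRpS21, mRpS14, mRpL13, mRpS9, mRpL17 and mRpL48, and their values are uncertain to that extent.

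Mitochondrial ribosomal protein genes fell almost as a whole while the tumors aged. Their summed level was 2842 ± 84.2 CPM in tumors at 4 days (SD, n = 4), 2663 ± 50.0 CPM at 5 days (n = 4), 2573 ± 63.2 CPM at 6 days (n = 3) and 2292 ± 26.9 CPM at 8 days (n = 4). It was 2120 ± 56.8 CPM at 10 days, 2032 ± 127 CPM at 12 days and 1823 ± 102 CPM at 14 days (n = 4 each). The 4 libraries at 14 days held 1813, 1948, 1834 and 1698 CPM, against 2866, 2917, 2864 and 2721 CPM at 4 days. All 4 oldest tumors lay below all 4 youngest ones, and the mean at 14 days was 0.642 of that at 4 days. One library stood apart: replicate 1 at 12 days held 2222 CPM, whereas the other libraries of that age held 1956 to 1979 CPM.

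Genes of both subunits fell, by these names. Large-subunit genes summed to 1188 ± 69.3 CPM at 14 days and 1845 ± 55.0 CPM at 4 days, and small-subunit genes to 635 ± 33.0 CPM at 14 days and 997 ± 29.4 CPM at 4 days (SD, n = 4 each). The mean ratio of the large-subunit to the small-subunit sum stayed between 1.82 and 1.91 in the tumors of all 7 ages. For control discs it was 1.92 at 5 days and 1.97 at 4 days. Some tumor ages still differed without overlap: libraries held 1.815 to 1.839 at 6 days, 1.845 to 1.862 at 4 days and 1.878 to 1.933 at 10 days. The narrow range in tumors depended on the names. The mammalian counterparts of mRpS30 and mRpS18A sit in the large subunit, and with both genes counted there, a choice made after the data were seen, the ratio was 2.25 ± 0.011 in 14-day tumors and 2.48 ± 0.0204 in 4-day tumors (SD over 4 libraries). The libraries then held ratios of 2.24 to 2.26 at 14 days and of 2.45 to 2.5 at 4 days, without overlap, and at 14 days the large-subunit sum was 0.623 and the small-subunit sum 0.687 of that at 4 days. Without mRpS30, the most abundant member, the sum at 14 days was 0.658 of that at 4 days.

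**Figure D1:**
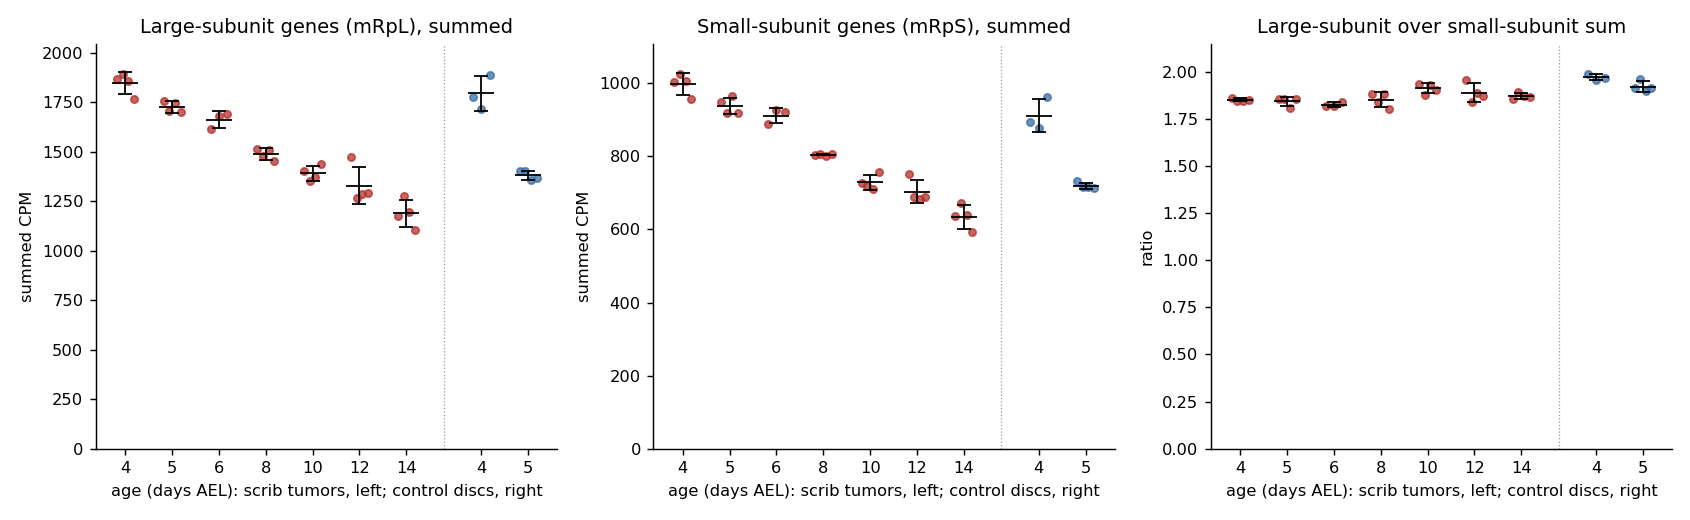
Summed CPM of large-subunit genes (left) and small-subunit genes (middle) and the ratio of both sums (right) by age in days AEL, with scrib tumors left and control discs right of the dotted line. Points are libraries and bars the mean ± SD (n = 3 or 4). Both sums fell with tumor age while the ratio stayed between 1.80 and 1.99 in every library with members placed by name.

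Gene by gene, a line was fitted with limma to log2(CPM + 1) against age over the 27 tumor libraries, and p-values were adjusted over all 9408 genes tested. Past an adjusted p of 0.05, 66 of the 71 tested members had a negative slope and 1 a positive slope, against a background of 40.8% of all tested genes with a negative and 36.4% with a positive one. The median slope of the members was -0.064 per day, and that of all tested genes -0.0040 per day. Of large-subunit genes, 45 of 46 fell, and of small-subunit genes 21 of 25. Members were also sorted by the number in their names, which can misplace single ones, into families shared with bacteria and mitochondrial additions. Of the former, 42 of 44 fell, with a median slope of -0.065, and of the latter 24 of 27, with a median slope of -0.060. The differences between these groups were not tested. Ranked among all tested genes, the members' slopes lay between percentiles 4.18 (mRpS30) and 66.2 (mRpL39). Over the same ages all 10 gut markers, 3 of 6 tested fat body markers and 2 of 8 hemocyte markers fell, while 7 of 10 wing disc and 3 of 4 tracheal markers rose, and of 7 muscle and myoblast markers 3 rose and 2 fell. The part of these tissues in the fall of the members was not tested. Without tumors of 4 days, mRpL45 and mRpS29, the least steep of the falling genes, lost their calls (adjusted p = 0.19 and 0.15, limma). That of mRpS29 was also lost with library size alone (0.093) and without replicate 4 at 4 days (0.054).

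**Figure D2:**
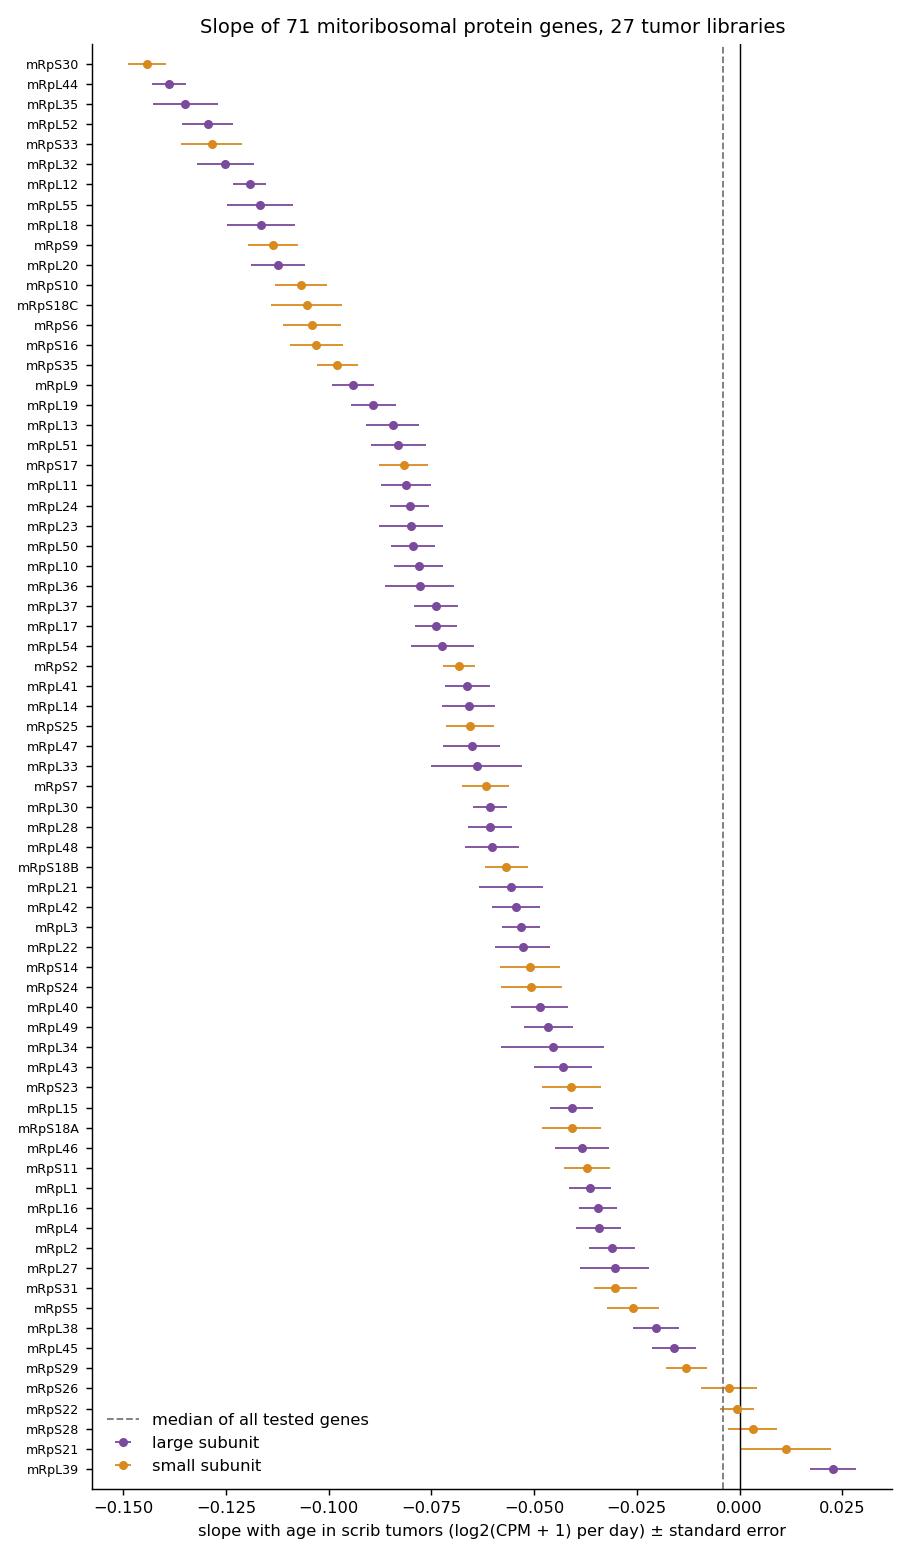
Slope of log2(CPM + 1) per day of age with its standard error for the 71 tested members in 27 tumor libraries, large-subunit genes in purple and small-subunit genes in orange, steepest fall on top. The dashed line is the median of all tested genes (-0.0040), and only mRpS28, mRpS21 and mRpL39 have slopes above 0.

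The steepest fall was that of mRpS30, whose mammalian counterpart sits in the large subunit in spite of its name. Its levels were 63.6, 58.2, 61.6 and 60.05 CPM in tumors at 14 days, against 162.9, 160.0, 166.3 and 159.6 CPM at 4 days. The groups were far apart, and its mean fell at each of the 6 steps between ages. Its slope was -0.144 per day (standard error 0.0046, adjusted p = 2.8e-20, limma), on the scale of log2(CPM + 1). mRpL44, which carries a fold like that of the RNA-cutting enzyme RNase III, came next. It had 21.1, 22.0, 20.8 and 20.7 CPM at 14 days, against 55.2, 57.2, 58.1 and 59.0 CPM at 4 days, again without overlap, and a slope of -0.139 (standard error 0.0040, adjusted p = 5.2e-21, limma).

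mRpL35, mRpL52 and mRpS33, a bacterial-type protein and 2 mitochondrial additions, completed the 5 steepest with slopes of -0.135, -0.129 and -0.128. mRpL35 had 8.82, 10.3, 8.49 and 7.14 CPM at 14 days, against 22.4, 25.3, 24.5 and 19.3 CPM at 4 days. mRpL52 had 8.20, 8.79, 8.68 and 7.595 CPM at 14 days, against 24, 25.1, 24.5 and 17.5 CPM at 4 days. All of the oldest tumors lay below all of the youngest for both genes, although replicate 4 at 4 days was the lowest of its group. mRpS33 had 4.96 to 6.33 CPM at 14 days, against 12.6 to 17.7 CPM at 4 days, likewise without overlap.

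The stalk genes fell too. mRpL12 had 36.1, 39.7, 36.8 and 35.3 CPM at 14 days, against 81.2, 84.7, 87.8 and 81.6 CPM at 4 days, with a slope of -0.119 (standard error 0.0040, adjusted p = 8.3e-20, limma). mRpL10, the protein that holds L12 at the base of the stalk in bacteria, had 18.7, 15.4, 13.9 and 16.2 CPM at 14 days, against 29.5, 31.2, 29.4 and 27.9 CPM at 4 days, with a slope of -0.078 (adjusted p = 1.5e-12, limma). Neither gene's groups overlapped. The 3 genes of the S18 family are related to a single bacterial protein. Among them mRpS18C fell most steeply with a slope of -0.105, then mRpS18B with -0.057 and mRpS18A with -0.041 (adjusted p = 7.9e-12, 1.2e-10 and 1.0e-05, limma). The differences between these slopes were not tested.

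5 members did not fall past the threshold. mRpL39, whose counterpart in mammals resembles part of a threonyl-tRNA synthetase, was the sole member with a positive slope past the threshold, 0.023 per day (standard error 0.0057, adjusted p = 6.9e-04, limma). Its levels were 72.9, 79.5, 74.4 and 61.2 CPM at 14 days, against 60.5, 61.0, 62.8 and 58.9 CPM at 4 days, so that 1 of the oldest tumors lay within the range of the youngest. The other 4, which passed the threshold in neither direction, were all of the small subunit: mRpS21, mRpS22, mRpS26 and mRpS28. mRpS22 had 66.4, 75.7, 68.9 and 63.1 CPM at 14 days, against 67.6, 70.5, 72.2 and 70.3 CPM at 4 days, and a slope of -0.00067 (standard error 0.0041, adjusted p = 0.89, limma). mRpS26 had 42.2, 50.5, 44.3 and 38.0 CPM at 14 days, against 45.4, 47.3, 47.0 and 44.7 CPM at 4 days, with a slope of -0.0026 (adjusted p = 0.74, limma). Both sets of values overlapped. The slopes of mRpS28 and mRpS21 were 0.0032 and 0.011 (adjusted p = 0.64 and 0.35, limma), and 48.0% of the exon bases of mRpS21 are shared with CG8870. Replicate 1 at 12 days was the highest of its group for all 5 of these genes, at 84.6 CPM for mRpL39 and 59.3 CPM for mRpS26.

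Several members fell slowly. mRpS29, a GTP-binding protein known in mammals as DAP3, had a slope of -0.013 (adjusted p = 0.022, limma), with 46.9 to 56.7 CPM at 14 days and 51.5 to 58.7 CPM at 4 days. mRpL45, which in mammals tethers the ribosome to the inner membrane beside the tunnel exit, had a slope of -0.016 (adjusted p = 0.0082, limma), with 61.2 to 73.3 CPM at 14 days and 71.03 to 73.2 CPM at 4 days. The levels at both ages overlapped for both genes.

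**Figure D3:**
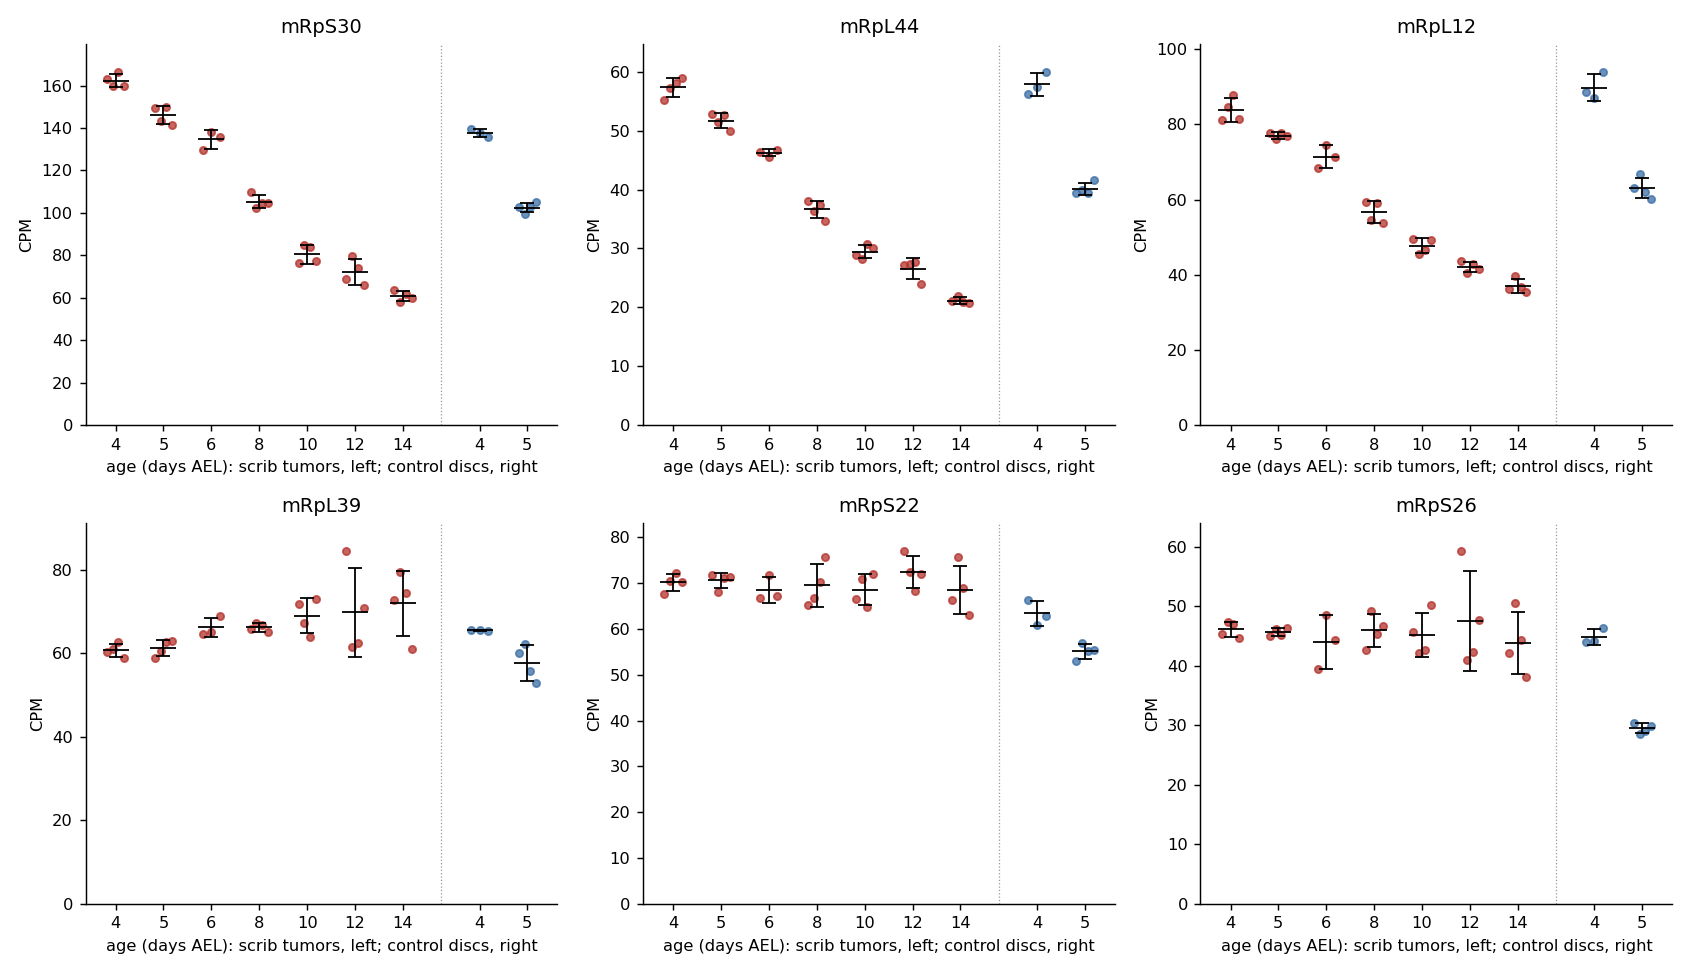
CPM of 6 members by age in days AEL, with scrib tumors in red left of the dotted line and control discs in blue right of it. Points are libraries and bars the mean ± SD. mRpS30, mRpL44 and mRpL12 fell at every step between ages, whereas the tumors of all ages overlapped for mRpS22 and mRpS26, and mRpL39 averaged 1.19 times its 4-day level at 14 days.

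The fall was spread over the ages. The mean level in tumors was highest at 4 days for 52 of the 71 members and lowest at 14 days for 64. It fell at each of the 6 steps between ages for 29 members and at 5 steps for another 28. The mean at 14 days ranged from 0.362 to 1.19 of that at 4 days, with a median of 0.617, and was less than 0.5 of it for 17 members. The shares of all tested genes with these patterns are not given. For 60 members all tumors at 14 days lay below all tumors at 4 days, against 35.6% of all tested genes, and for the other 11 the groups overlapped.

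Between successive ages, no member was called higher by limma in any of the 6 steps, nor by edgeR or DESeq2, and at an unadjusted p under 0.05 only mRpS21 was, at 12 against 10 days. Members called lower numbered 12 (16.9%) at 5 against 4 days (background 11.7% lower and 12.2% higher) and 1 (1.41%) at 6 against 5 days (background 3.94% and 4.50%). The first share was thus near the background and the second below it. Members called lower numbered 22 (31.0%) at 8 against 6 days (background 13.3% and 13.1%) and 23 (32.4%) at 10 against 8 days (background 12.3% and 11.3%). They numbered 8 (11.3%) at 12 against 10 days (background 2.72% and 2.87%) and 27 (38.0%) at 14 against 12 days (background 10.3% and 6.07%). The members' median differences over these steps were -0.078, -0.051, -0.159, -0.129, -0.057 and -0.186 on the log2 scale, while those of all tested genes lay between -0.012 and 0.0045. mRpL44 was called lower at each of the 6 steps. At 5 against 4 days mRpL55 (-0.29), mRpL18 (-0.28) and mRpS9 (-0.27) had the most negative differences, at 8 against 6 days mRpL32 (-0.47) and mRpS10 (-0.42), and at 14 against 12 days mRpL18 (-0.43) and mRpL55 (-0.39). At 5 against 4 days the mRpL55 call was lost without replicate 1 or 3 at 4 days or replicate 1, 2 or 4 at 5 days (adjusted p up to 0.15, limma). The mRpL18 call was lost without replicate 1, 2 or 3 at 4 days or replicate 2 at 5 days (up to 0.078), and that of mRpL18 at 14 against 12 days with a fit to only these ages (0.068).

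Markers of other tissues moved over several of these steps. At 5 against 4 days 7 of 8 hemocyte markers and 4 of 7 muscle and myoblast markers were lower and 3 of 6 fat body markers higher. At 8 against 6 days 7 of 10 gut markers were lower (median difference -2.79), and at 10 against 8 days 4 of 6 fat body markers (-3.13). Of 10 wing disc markers, 4 were higher at 6 against 5 days and 4 at 10 against 8 days. The gut marker sum was 6.43 to 11.3 CPM at 12 days, against 11.1 to 588 CPM at 10 days, and 4.22 to 12.7 CPM at 14 days. The part of these tissues in the members' steps was not tested.

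Single libraries moved several of these counts. At 5 against 4 days the count was 6 to 7 without replicate 2 or 3 at 4 days or replicate 2 or 4 at 5 days, and 20 without replicate 4 at 4 days. At 6 against 5 days the 1 call, mRpL44, was lost without replicate 1 or 3 at 5 days or any single library of 6 days. At 10 against 8 days 11 to 15 members were called without replicate 1, 2 or 3 at 8 days or replicate 2 or 3 at 10 days. At 12 against 10 days 4 or 5 were called without any single library of 10 days or without replicate 2 or 4 at 12 days. With a fit to only the 2 groups compared, 0 members were called at 12 against 10 days and 6 at 14 against 12 days. The shares of all tested genes called in these fits, or with a library left out, are not given. These counts therefore cannot be set against a background.

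**Figure D4:**
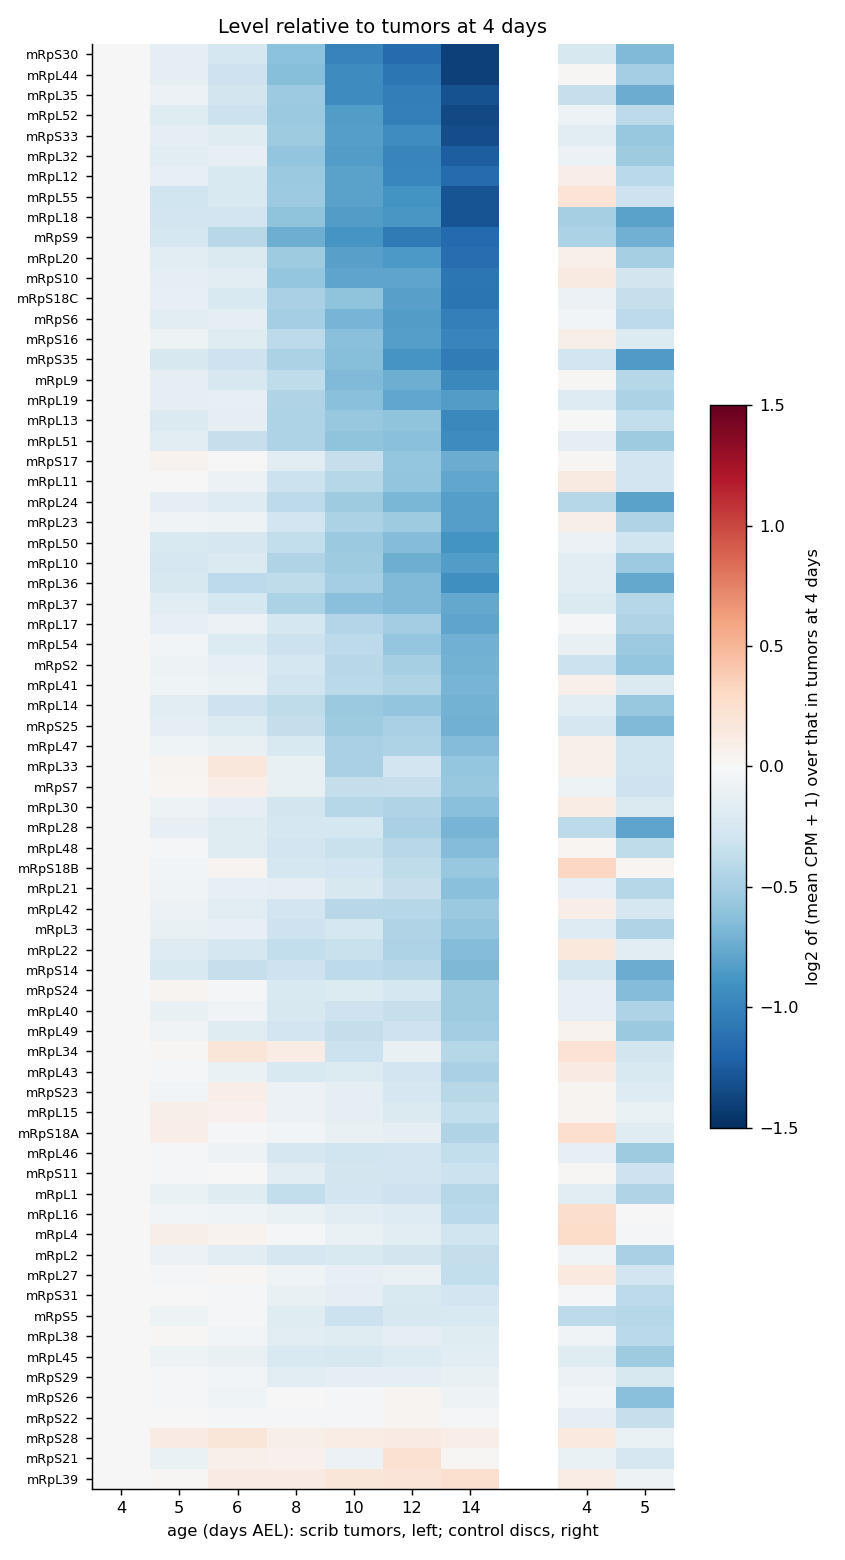
Mean level of the 71 tested members in each group, as log2 of (mean CPM + 1) over that of tumors at 4 days, with tumor ages on the left and control discs at 4 and 5 days on the right. Rows are ordered by slope with tumor age, steepest fall on top. The tumor column of 14 days is below 0 for 68 of 71 members, all but mRpS28, mRpS21 and mRpL39, and mRpS30 reached -1.40 there.

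Control discs showed a fall over a single day. Their summed member level was 2132, 2117, 2069 and 2079 CPM at 5 days, against 2668, 2595 and 2851 CPM at 4 days, so that the mean at 5 days was 0.776 of that at 4 days and the ages did not overlap. In limma's fit over the 9 groups, 67 of 71 members were lower at 5 than at 4 days in control discs, against a background of 27.2% of 9637 tested genes, and 0 were higher, against 26.6% (0 also at an unadjusted p under 0.05, and in edgeR and DESeq2). The median difference was -0.36 on the log2 scale over the members and -0.022 over all tested genes. Both subunits shared it, with 45 of 46 large-subunit and 22 of 25 small-subunit genes lower. The fit used 1 estimate of the spread for all 9 groups. Control discs at 4 days varied more than those at 5 days, with an SD of the summed level of 132 CPM (n = 3) against 30.0 CPM (n = 4).

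mRpL36, a small protein of the bacterial-type core, showed the largest difference: 17.3, 17.4, 16.0 and 17.4 CPM in control discs at 5 days, against 26.8, 25.6 and 27.3 CPM at 4 days (log2 difference -0.61, standard error 0.10, adjusted p = 8.8e-06, limma). mRpS26 had 30.4, 28.5, 29.1 and 29.95 CPM at 5 days, against 43.95, 44.2 and 46.4 CPM at 4 days (-0.59, standard error 0.090, adjusted p = 2.2e-06, limma). Neither gene's ages overlapped, and mRpS26 is among the members with no slope past the threshold in the tumors. mRpL49 (-0.59), mRpL20 (-0.57) and mRpS35 (-0.55) followed. The 4 members not called were mRpS5 (-0.025), mRpS21 (-0.14), mRpS18C (-0.25) and mRpL39 (-0.18, adjusted p = 0.051, limma). Tissue markers moved over this step as well. Salivary gland markers summed to 15.6 to 157 CPM in control discs at 5 days and 0.206 to 0.393 CPM at 4 days, and 9 of 10 wing disc markers were higher at 5 days (median difference 0.69). Lower at 5 days were 5 of 10 gut markers (-2.13), 3 of 8 hemocyte markers (-0.25) and 2 of 6 fat body markers (-1.72). Their part in the members' fall was not tested.

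At 4 days, tumors and control discs differed little in these genes. The members summed to 2842 ± 84.2 CPM in tumors (SD, n = 4) and 2704 ± 132 CPM in control discs (SD, n = 3), and the groups overlapped. In limma, 17 of 71 members were higher and 4 lower in tumors, against a background of 32.4% higher and 28.6% lower, with a median difference of 0.051 over the members and 0.035 over all tested genes. The split depended on the scaling: with library size alone, 8 members were higher and 18 lower, with a median of -0.066, while 25.6% of all tested genes were then higher and 36.8% lower, with a median of -0.058. Of the tissue markers, 6 of 10 of gut, 7 of 8 of hemocytes and 3 of 4 of trachea were higher and 8 of 10 of wing disc lower in tumors at this age, and their part was not tested.

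The members higher at 4 days included mRpL18, whose bacterial counterpart binds the smallest rRNA of the large subunit. It had 16.9, 16.7, 17.9 and 14.4 CPM in tumors, against 10.9, 11.8 and 11.4 CPM in control discs (log2 difference 0.49, standard error 0.096, adjusted p = 6.4e-05, limma). mRpS9, which in bacteria reaches the tRNA in the decoding region, had 73.3, 80.6, 76.2 and 76.9 CPM in tumors, against 52.9, 54.6 and 58.0 CPM in control discs (0.47, standard error 0.054, adjusted p = 8.7e-09, limma). Tumors lay above control discs in every library for both genes, and 25.1% of the exon bases of mRpS9 are shared with ArgRS-m. mRpL24, an early assembly protein in bacteria, mRpS5, which affects decoding accuracy there, and mRpL28 were higher by 0.43, 0.40 and 0.39 on the log2 scale. The 4 lower ones were mRpS18B (-0.31), mRpL4 (-0.27), mRpL16 (-0.26) and mRpS18A (-0.25). In bacteria L4 lines the exit tunnel and L16 lies near the site where tRNA enters. mRpS18B had 23.6, 24.9, 24.1 and 23.1 CPM in tumors, against 29.9, 28.03 and 31.8 CPM in control discs, without overlap (adjusted p = 1.4e-04, limma). The call of mRpS18A was lost in a fit to only these 2 groups (adjusted p = 0.13, limma), without replicate 3 of control discs (0.25) and without replicate 4 of tumors (0.12).

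At 5 days the tumors had more RNA of most members than control discs had. The sum was 2705, 2622, 2707 and 2617 CPM in tumors, against 2132, 2117, 2069 and 2079 CPM in control discs, a ratio of means of 1.27 with no overlap. In limma, 57 of 71 members were higher in tumors, against a background of 39.0%, and 0 were lower (0 also at an unadjusted p under 0.05, in edgeR and in DESeq2), against a background of 32.5%. The median difference was 0.34 over the members and 0.063 over all tested genes. With library size alone 45 members were higher and 2 lower, and of all tested genes 33.9% higher and 37.6% lower. Gut markers differed in the same direction, at 558 to 1109 CPM in tumors and 0.906 to 264 CPM in control discs, with 8 of 10 called higher, as were 6 of 8 hemocyte, 3 of 4 tracheal and 3 of 6 fat body markers. All 10 wing disc markers and 6 of 6 tested salivary gland markers were lower in tumors. The part of these tissues in the difference was not tested.

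The largest difference at 5 days was that of mRpS24, with 11.1, 10.1, 10.2 and 10.1 CPM in tumors, against 6.07, 6.73, 5.47 and 5.89 CPM in control discs (log2 difference 0.70, standard error 0.090, adjusted p = 5.6e-08, limma). Its mean level is the lowest of the tested members, and 55.3% of its exon bases are shared with TBC1d7. mRpL28 had 90.2, 80.6, 83.9 and 85.1 CPM in tumors, against 52.1, 53.0, 54.2 and 51.9 CPM in control discs (0.67, standard error 0.055, adjusted p = 4.5e-12, limma). mRpL35 had 22.0, 20.8, 21.8 and 21.5 CPM in tumors, against 14.4, 12.8, 13.1 and 12.5 CPM in control discs (0.67, standard error 0.096, adjusted p = 4.4e-07, limma). None of these overlapped. mRpL24 (0.65) and mRpS26 (0.61) came next. At the other end stood mRpS18B (-0.067), mRpL16 (-0.041), mRpL22 (-0.039), mRpL55 (0.010) and mRpL50 (0.077), none of which passed the threshold. The 57 members called higher at 5 days included the 17 called higher at 4 days.

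The change between 4 and 5 days was compared directly between the genotypes. Its difference, the change in tumors minus that in control discs, passed the threshold for 38 of 71 members in limma, all positive, against a background of 19.4% of tested genes with a positive and 19.2% with a negative difference. The count of negative ones was 0, also at an unadjusted p under 0.05, in edgeR and in DESeq2. The median was 0.26 over the members and 0.022 over all tested genes, and 68 of 71 members had a less negative or more positive change in tumors. Without replicate 3 of control discs at 4 days, the highest in summed level at 2851 CPM, 21 members were called. The share of all tested genes called without it is not given. The largest called differences were those of mRpS24 (0.58), mRpS26 (0.58), mRpL49 (0.54), mRpS18A (0.53) and mRpL23 (0.49), with adjusted p of 7.7e-04, 3.7e-04, 5.7e-04 and 0.0013 for the first 4 (limma). That of mRpS24 is uncertain because of the exon bases it shares with TBC1d7. mRpL49 had 30.2, 31.4, 32.4 and 28.5 CPM in tumors at 5 days and 30.6, 35.2, 32.8 and 28.5 CPM at 4 days, whereas control discs had 22.0, 21.3, 20.9 and 21.2 CPM at 5 days and 31.1, 27.9 and 39.8 CPM at 4 days. The tumor ages overlapped and the control ages did not. The differences of mRpS5 (-0.046), mRpL50 (-0.018) and mRpS9 (-0.016) lay at the other end and did not pass the threshold.

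**Figure D5:**
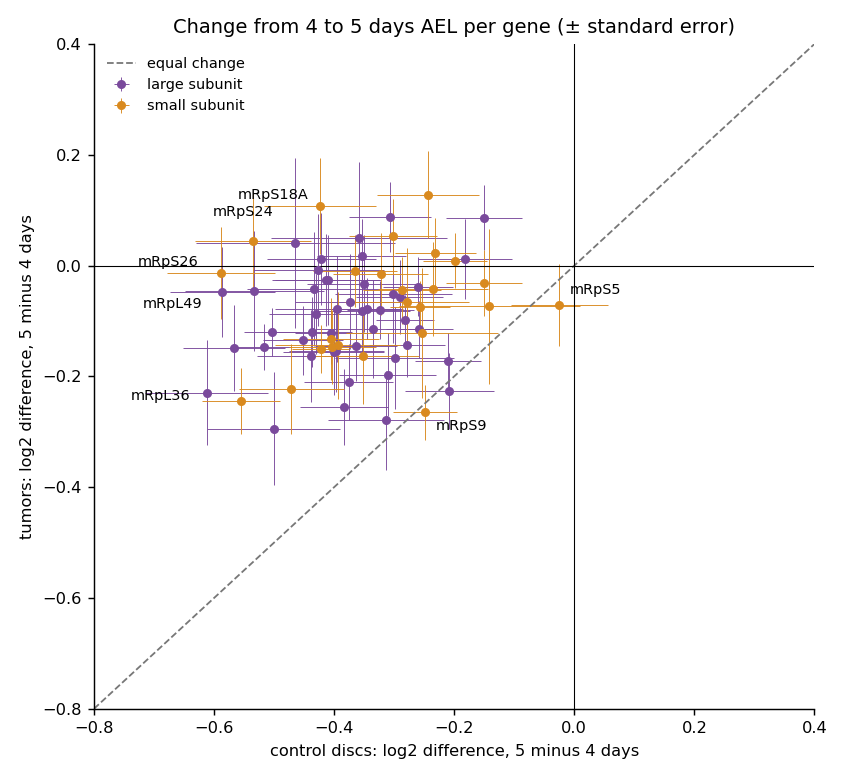
Log2 difference between 5 and 4 days AEL for the 71 tested members in tumors (vertical axis) and in control discs (horizontal axis), with standard errors. Of the 71 points, 68 lie above the dashed line of equal change, and mRpS5, mRpL50 and mRpS9 lie below it.

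At 14 days the tumors held less RNA of these genes, summed, than control discs at 5 days. Their summed member level of 1823 ± 102 CPM was 0.868 of the 2100 ± 30.0 CPM of control discs at 5 days (SD, n = 4 each), the oldest control discs at hand, and all 4 tumors lay below all 4 discs. For 42 members every 14-day tumor lay below every such disc, for 6 above, and for 23 the groups overlapped. Of all tested genes, 33.2% lay below and 34.7% above. These ages differ, and no test was made of the comparison.

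Members shared features of gene structure that the choice by name did not use. The median exon length of the 71 tested members was 783 bases, against 2135 bases over 8994 tested protein-coding genes, and 63 of 71 (88.7%) had at most 3 exons, against 42.8%. A gene on the opposite strand started within 500 bases of the start of 51 members (71.8%), against 31.9%. The members were scattered over the arms X, 2L, 2R, 3L and 3R, with 11, 12, 11, 16 and 21 tested members, and their median slopes there were -0.053, -0.061, -0.066, -0.065 and -0.081. Across the 71 members, slope had a Spearman correlation of 0.32 with mean level and of 0.30 with exon length. These are descriptions over genes measured in the same libraries.

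Divergent neighbours moved in both directions. Of 42 such neighbours that were tested, 24 had a negative and 12 a positive slope past the threshold, against 40.8% and 36.4% of all tested genes, with a median of -0.022. mRpL55 lies 95 bases from ATPsynD, a subunit of ATP synthase, and their slopes were -0.117 and -0.138 per day. mRpL35 lies 192 bases from Mitofilin, a protein that shapes the inner membrane, and their slopes were -0.135 and -0.086. mRpL39, the member with the positive slope, starts 285 bases from Prosbeta2, a proteasome subunit whose slope was -0.092. mRpL44 starts 290 bases from Snr1, a chromatin remodeling subunit with a slope of 0.052.

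Most other genes of mitochondrial translation fell too. tko and bonsai, 2 proteins of the small subunit that carry older names, had slopes of -0.081 and -0.142 (adjusted p = 3.1e-13 and 1.0e-17, limma). Of 9 translation factors, 8 fell, with a median slope of -0.065. Of all tested genes, 40.8% fell and 36.4% rose. The most abundant, EfTuM, which delivers charged tRNAs, averaged 169 CPM in tumors at 14 days and 347 CPM at 4 days, with a slope of -0.102 (adjusted p = 5.9e-14, limma). CG12413 and CG13163, annotated as the initiation factors mIF2 and mIF3, had slopes of -0.107 and -0.098. Elongation genes CG6412 (mEFTs) and ico (mEFG1) had slopes of -0.063 and -0.054, and termination and recycling genes CG5705 (mRF1), CG4447 (mRRF1) and EF-G2 (mRRF2) slopes of -0.078, -0.065 and -0.047. CG12736 (mEFTu2), a second gene of the EF-Tu type, did not pass the threshold, with a slope of -0.0021. Of 15 mitochondrial aminoacyl-tRNA synthetases, 13 fell and 1 rose, with a median slope of -0.050.

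Genes for mitochondrial DNA and RNA moved less uniformly. Of 9 tested genes of mitochondrial DNA maintenance and transcription, 4 fell, with a median slope of -0.014, so that the share that fell was close to the 40.8% of all tested genes. mtTFB2, a transcription factor of mitochondrial DNA, had the most negative slope of them at -0.142, whereas mtRNApol, the polymerase, did not pass the threshold at -0.0033 and TFAM, which packages the DNA, fell by 0.017 per day. Of 4 genes of mitochondrial RNA stability, bsf (-0.082) and Lrpprc2 (-0.034) fell and MTPAP, the poly(A) polymerase, rose (0.026). Of 7 chaperones and proteases, 5 fell, among them Hsc70-5 (-0.080) and CG11267 (Hsp10, -0.108), while CG4538 (ClpX, 0.030) and CG5045 (ClpP, 0.043), the parts of one protease, rose. All 13 protein-coding genes and both rRNA genes of the mitochondrial genome were listed at 0 in every library, so the RNAs these ribosomes read and contain could not be followed.

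The fall was smaller than that of the respiratory chain and larger than that of cytosolic ribosomes. Nuclear genes of oxidative phosphorylation summed to 0.47 of their 4-day level in tumors at 14 days, with 65 of 67 tested genes falling and a median slope of -0.095. Genes of cytosolic ribosomal proteins summed to 0.974 of it, with 35 of 80 falling, 20 rising and a median slope of -0.0094, beside the 40.8% of all tested genes that fell and the 36.4% that rose. Relative to 1000 CPM of oxidative phosphorylation genes, the members therefore held 231 ± 4.33 CPM at 14 days and 170 ± 4.80 CPM at 4 days. Relative to 1000 CPM of cytosolic ribosomal protein genes, they held 11.2 ± 0.157 CPM at 14 days and 16.9 ± 0.384 CPM at 4 days (SD, n = 4 each). The 2 ages did not overlap in either ratio. At 5 days, both other lists were higher in tumors than in control discs as well, with 60 of 68 oxidative phosphorylation genes and 76 of 80 cytosolic ribosomal protein genes called higher, 1 lower in each, and medians of 0.42 and 0.38 beside the members' 0.34. In control discs, 61 of 68 and 58 of 80 were lower at 5 than at 4 days (background 27.2%), and 1 and 0 higher. The medians were -0.446 and -0.203 beside the members' -0.358. The difference between the genotypes in this change was positive for 41 and 55 of them (background 19.4%) and negative for 1 in each. Its medians were 0.281 and 0.279 beside the members' 0.256. The differences between the lists were not tested.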

How the data were processed

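Bulk RNA-seq of 34 wing disc libraries was analysed. According to the methods, STAR was used by the authors to map reads to BDGP6, featureCounts in its default setting, which ignores strand, to count them, and edgeR to normalize. The deposited values are CPM scaled per library by the authors. In 20 libraries the deposited values summed to more than unscaled CPM can, and were treated as a signal on the same scale. Dividing by the value of 1 read gave whole reads (within 0.1 read) for 100% of values.

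Values were tested as log2(CPM + 1) with limma 3.58.1 (R 4.3.3, intensity trend) after edgeR's filterByExpr by group. This scale understates changes of low genes. Slopes used 27 tumor libraries (9408 genes), and contrasts a fit of 9 groups (9637 genes), with Benjamini-Hochberg adjustment over all tested genes and a threshold of 0.05. The procedure was tested on simulated data. Alternatives were edgeR 4.0.16 and DESeq2 1.42.0 on recovered reads, a pseudocount of 0.1, no filter, other scalings, a replicate block, other sets of samples, and leaving out each library. After the data were seen, the tumor libraries of replicate 1 at 10 days (588 CPM of gut markers) and at 12 days (the highest summed member level of its age) were also left out together.

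Members and gene lists were chosen with earlier results of these data known. Genes named were, per comparison, the 5 members with the most positive and the 5 with the most negative effect, of which the text gives a part, those highest and lowest in CPM, members singled out by role or by a shared name, those called against the common direction, the translation factors, and in each other list the 3 highest and 3 lowest slopes. The divergent neighbours named were chosen after their values were seen. Gene structures, with 46 divergent neighbours, came from a BDGP6 annotation in which 17490 of 17641 symbols were found. Its release may differ from that of the authors. The gene mRpS34 was not analysed here. On average over genes, the squared difference between replicates was 5.98 to 51.3 times that of sampling noise over 48 pairs. Pairs of control discs at 4 days gave 31.6 to 51.3, those at 5 days 8.17 to 21.4 and tumors at 12 days 15.9 to 45. This average is driven by genes with many reads, and the part of counting error in the spread of single members was not measured.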

Additional observations from a re-analysis of the deposited data

Results flagged for a closer look

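Chance alone flags about 1 in 20 tests for a sample far from the others of its group. Over the sums, ratios and members examined, each tested in every group of 4 libraries, 13 of 154 tests were flagged. Many of these tests share libraries and genes, so they are not independent. Replicate 1 of tumors at 12 days stood above the others in the summed member level (2222 CPM, others 1956 to 1979), in the large-subunit sum (1471 CPM, others 1266 to 1290) and in the small-subunit sum (751.5 CPM, others 682.8 to 689.7). Replicate 1 of control discs at 5 days was high in the small-subunit sum (732.1 CPM, others 714.2 to 714.9). The ratio of the large-subunit to the small-subunit sum was high in replicate 1 of tumors at 4 days (1.862, others 1.845 to 1.847) and low in replicate 3 at 5 days (1.807, others 1.852 to 1.856). Members per 1000 CPM of oxidative phosphorylation genes were low in replicate 4 of tumors at 4 days (162.3, others 171.3 to 172.1) and in replicate 2 at 5 days (177.3, others 180.4 to 181).

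Single members stood apart in 1 tumor library each. mRpL44 was low in replicate 4 at 12 days (23.88 CPM, others 27.14 to 27.76), mRpL52 in replicate 4 at 4 days (17.49 CPM, others 24 to 25.12) and mRpS22 in replicate 2 at 5 days (68.03 CPM, others 71.19 to 71.76). mRpS24 was high in replicate 1 at 5 days (11.13 CPM, others 10.09 to 10.23) and mRpL28 in replicate 3 at 14 days (58.43 CPM, others 56.12 to 56.31).

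The change from 4 to 5 days differed between tumors and control discs, by limma's test of that difference, most for mRpS24 (0.579 on the log2 scale), mRpS26 (0.576), mRpL49 (0.539), mRpS18A (0.531) and mRpL23 (0.487).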

How the results depend on the processing

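The count of members that fell with tumor age was 65 to 66 and that of members that rose 1 whichever library was left out. Of the slopes close to 0, that of mRpS22 turned positive in edgeR (0.00143), with library size alone (0.00369), without 14 days (0.00265) and without replicate 3 at 4 days or replicate 1 or 4 at 14 days (4.01e-05, 0.000592 and 0.00196). That of mRpS26 turned positive in edgeR (0.000374), with library size alone (0.00176), without 14 days (0.00337) and without replicate 4 at 14 days (0.00192), and that of mRpS28 turned negative without 4 days (-0.00457). None of these was called. With 1 library left out, the slope of mRpS22 ranged from -0.00297 to 0.00196 and that of mRpS26 from -0.007 to 0.00192. Scaling by library size alone gave 8 (higher) and 18 (lower) members in tumors at 4 days, 2 lower at 5 days, 2 lower at 6 against 5 days and 11 lower at 10 against 8 days. DESeq2 called 3 members lower at 6 against 5 days. Fits to only the 2 groups compared called 4 at 6 against 5 days, 0 at 12 against 10 days and 6 at 14 against 12 days. Leaving out the pair of tumor libraries chosen after seeing the data gave 3 at 12 against 10 days. With 1 library left out, the count of members ranged over 12 to 21 (higher) and 3 to 6 (lower) in tumors at 4 days, 51 to 58 (higher) at 5 days, 57 to 68 (lower) in control discs, 21 to 43 for the difference between genotypes, and 6 to 20, 0 to 1, 15 to 25, 11 to 24, 4 to 9 and 19 to 33 (lower) over the 6 steps between tumor ages. Calls of single genes lost without some library were those of mRpS29 (slope), mRpS18A (tumors at 4 days), mRpL15 and mRpS29 (control discs), mRpL18 and mRpL55 (5 against 4 days), mRpL44 (6 against 5 days), mRpS33 (8 against 6 days), mRpL33 and mRpL34 (10 against 8 days) and mRpL28, mRpS17 and mRpS35 (12 against 10 days). With mRpS30 and mRpS18A in the large subunit, the ratio of the subunit sums was 2.25 in tumors at 14 days and 2.48 at 4 days, and by name 1.87 and 1.85. Every other count under these alternatives stayed within 1.5 times. Shares of all tested genes are not given for fits with libraries left out or to only the 2 groups compared.

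The replicate block changed counts of members little: with it 66 fell with age, 18 (4 days) and 58 (5 days) were higher in tumors, 4 were lower there at 4 days, 64 were lower in control discs and 34 differed between the genotypes, while the mRpL15 and mRpS29 calls in control discs were lost (adjusted p = 0.078 and 0.070, limma). Deviations of 129 pairs of libraries with the same number had a mean correlation of -0.012 (384 other pairs: 0.004), so no pairing by number showed on average. Single pairs with the same number ranged from -0.44 to 0.46, and a mean cannot settle whether some groups were paired.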
